A study of Mus musculus with 2 samples.

Results

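The retinoic acid genes described here are 9 genes of the 32285 counted in cells of E7 mouse embryos, chosen by symbol for their place in the making, breakdown, binding and sensing of retinoic acid. They are *Rdh10*, *Aldh1a2*, *Dhrs3*, *Cyp26a1*, *Crabp1*, *Crabp2*, *Rara*, *Rarb* and *Rarg*. Cells of embryos at embryonic day 7 were pooled by genotype, 4 embryos for the control and 3 for the *Yap1* cKO, and each pool gave 1 droplet library, so no difference between the genotypes could be tested. The *Yap1* cKO embryos carried Sox2-Cre with both *Yap1* alleles floxed (fl/fl). The controls are given as Sox2-Cre with 1 floxed allele (fl/+) in the design text and as wild type in the sample labels, while the methods on mice describe floxed littermates without Cre, so whether they carried Cre is not settled here. Sox2-Cre recombines in the epiblast and the cells derived from it, and extraembryonic ectoderm and visceral endoderm arise earlier and are not its target. The study adds that extraembryonic tissues of its fl/fl embryos, control and *Yap1* cKO, are likely heterozygous for *Yap1*, the paternal allele being deleted. Whether the pools differ in genotype there was not tested. The labels give both pools as female, although Y-linked UMIs were counted in both.

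Retinoic acid is made from retinol in 2 steps. *Rdh10* oxidizes retinol to retinal, *Aldh1a2* oxidizes retinal to retinoic acid, and *Dhrs3* returns retinal to retinol. *Cyp26a1* oxidizes retinoic acid to products that are cleared. *Crabp1* and *Crabp2* bind it in the cytoplasm, *Crabp2* handing it to the receptors, and *Rara*, *Rarb* and *Rarg* are nuclear receptors that act on DNA as partners of retinoid X receptors. During gastrulation *Cyp26a1* is known to keep retinoic acid away from parts of the embryo, and *Cyp26a1* and *Rarb* are textbook targets of the receptors, through pairs of half-sites spaced by 5 bases.

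The promoters of these targets are shown because both carry that element, 1 in the gene of the breakdown enzyme and 1 in that of a receptor. RefSeq promoter windows (GRCm38.p6, 250 bases before to 50 after a RefSeq start of a gene) were found for 7 of the 9 genes, in 13 windows. Capitals mark a direct repeat of 2 half-sites spaced by 5 bases, searched on both strands. A half-site was taken to be AGGTCA, the form AGTTCA that differs from it by a base, or the forms GGGTCA with a first G and finally GGTTCA with both changes. The *Cyp26a1* window is chr19:37697558-37697857 on the plus strand and the *Rarb* window chr14:16575427-16575726 on the minus strand, both written 5′ to 3′ along the gene.
Cyp26a1: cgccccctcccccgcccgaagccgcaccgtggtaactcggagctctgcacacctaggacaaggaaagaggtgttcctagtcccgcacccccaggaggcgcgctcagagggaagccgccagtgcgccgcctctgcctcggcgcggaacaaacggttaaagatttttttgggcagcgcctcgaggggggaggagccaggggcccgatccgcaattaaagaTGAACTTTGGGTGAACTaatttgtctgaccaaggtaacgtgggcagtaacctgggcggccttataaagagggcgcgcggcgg
Rarb: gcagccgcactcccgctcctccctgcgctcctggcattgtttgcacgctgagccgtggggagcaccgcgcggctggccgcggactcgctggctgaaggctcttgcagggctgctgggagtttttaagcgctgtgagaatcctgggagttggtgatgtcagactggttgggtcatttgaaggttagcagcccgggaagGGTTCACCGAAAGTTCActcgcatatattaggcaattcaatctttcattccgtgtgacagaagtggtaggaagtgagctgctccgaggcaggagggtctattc
The element began 32 bases before the RefSeq start of the *Cyp26a1* window, read on the opposite strand, and 53 bases before that of the *Rarb* window. The *Rarb* start used lies inside the span of the gene, chr14:16430839-16819156 on the minus strand, and not at its outer end. Of the 7 genes with a window, these 2 held it, as did 32 (0.0974%) of all 32851 windows in the table. A match is a run of letters and not a measured binding site.

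Of UMIs there were 70573418, over 1829 barcodes, for the control pool, and 87937858, over 1897 barcodes, for the *Yap1* cKO pool. Barcodes with at least 5000 detected genes numbered 791 and 864, with medians of 75715 and 80922 UMIs per cell. The libraries shared 2 barcodes, none of them among these cells. Cells were parted by summed CPM of marker lists that hold none of the 9 genes, which placed 779 control and 847 *Yap1* cKO cells in 9 populations. Epiblast numbered 234 control and 186 *Yap1* cKO cells, primitive streak 64 and 119, nascent mesoderm (*Mesp1*, *Mesp2*) 68 and 91, and mesoderm with *Foxf1* and *Hand1* 63 and 46. Blood and endothelial progenitors numbered 28 and 30, node and axial mesendoderm 50 and 55, extraembryonic ectoderm 182 and 103, visceral endoderm 68 and 194, and anterior visceral endoderm, visceral endoderm cells that also held *Cer1*, *Hhex*, *Lefty1*, *Lhx1* or *Dkk1*, 22 and 23. The node and axial mesendoderm, called the node for short, also held 1274 control and 623 *Yap1* cKO CPM of those anterior markers. Its own list stood there at 557 and 524 CPM. No gate was set for embryonic endoderm, and the part of such cells in the node was not tested. Y-bearing cells were 51.7% of control cells and 15.5% of *Yap1* cKO cells, and *Prl3d1*, a marker of trophoblast giant cells, had 2059 UMIs in 5 control cells and 1 UMI in the *Yap1* cKO. Of the adult haemoglobin genes listed for maternal blood, *Hbb-bs* had 172 control and 3228 *Yap1* cKO UMIs and *Hba-a1* 26 and 1045.

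*Yap1* was first checked in every population. Pooled over the embryonic populations it stood at 29.9 CPM in control embryos and 1.66 CPM in the *Yap1* cKO (ratio 0.0556, 95% interval 0.0439 to 0.0696). In visceral endoderm it stood at 31.9 and 27.9 CPM (0.874, 0.731 to 1.05) and in extraembryonic ectoderm at 24.9 and 18.0 CPM (0.720, 0.612 to 0.846). In anterior visceral endoderm *Yap1* was lower in the *Yap1* cKO than in the other extraembryonic cells, at 13.2 CPM against 38.6 CPM in the control (0.342, 0.199 to 0.573). The control and *Yap1* cKO cells of that population also held 350 and 700 CPM of *Trh*, a gene of the node list, and 4272 and 5484 CPM of the summed visceral endoderm list, which stood at 12630 and 10882 CPM in visceral endoderm. The part of cells derived from the epiblast in it, and in its values of *Cyp26a1*, *Rarb* and *Dhrs3* below, was not tested. Here and throughout, a level in CPM is a gene's UMIs added up over the cells of a population, per 1000000 UMIs of those cells. Intervals are exact 95% intervals of the counting error alone, which leaves out how embryos or pools differ. Those of levels and ratios also leave out how cells differ, so they are too narrow where few cells hold many of the UMIs.

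**Figure D1:**
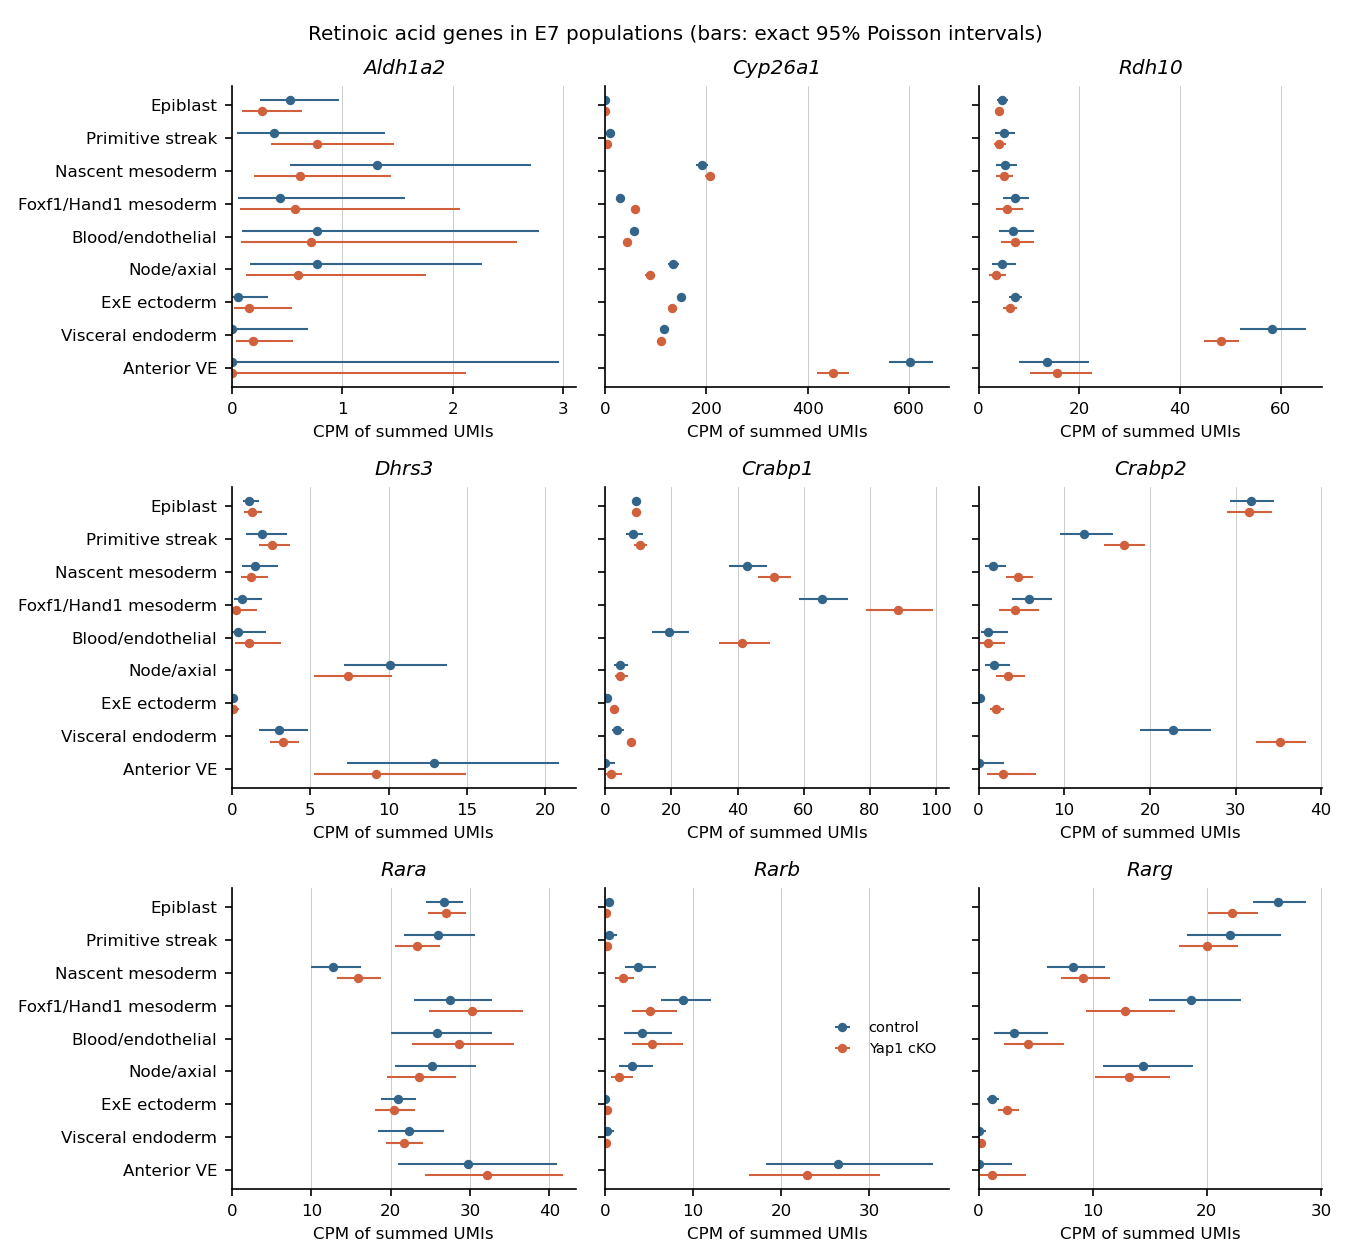
Levels of the 9 retinoic acid genes (x axis, CPM of summed UMIs, each panel on its own scale) in 9 populations of E7 embryos (y axis), for the control and the Yap1 cKO library, with exact 95% Poisson intervals as bars. Cyp26a1 and Rarb were highest in anterior visceral endoderm, Rdh10 in visceral endoderm, Crabp1 in Foxf1 and Hand1 mesoderm and Rarg in epiblast, in both libraries. With Trh in the node list and the node gate at 700 CPM, the control node was highest in Rarg instead.

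Of the genes that make retinoic acid, *Rdh10* was high in a single population and *Aldh1a2* was hardly seen. *Rdh10* (ENSMUSG00000025921, GRCm38 chr1:16105774-16133734, plus strand) was a gene of visceral endoderm. It stood there at 58.3 CPM (52.0 to 65.1) in control embryos and 48.2 CPM (44.8 to 51.7) in the *Yap1* cKO, with a median over single cells of 53.4 and 41.7 CPM. Anterior visceral endoderm came next at 13.7 and 15.5 CPM, and the other 7 populations lay between 3.40 and 7.16 CPM. Visceral endoderm was thus 4.26 times (2.62 to 7.41) as high as anterior visceral endoderm in control embryos and 3.11 times (2.12 to 4.75) in the *Yap1* cKO. Below visceral endoderm, each population's interval overlapped that of its neighbour in the order in both libraries, while anterior visceral endoderm lay clear of epiblast and node in both.

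*Aldh1a2* (ENSMUSG00000013584, chr9:71215789-71296243, plus strand), the enzyme that makes retinoic acid itself, was hardly detected at E7. It had 27 UMIs in 26 of 791 control cells and 33 UMIs in 31 of 864 *Yap1* cKO cells, and no cell held more than 2. Its highest level was 1.32 CPM (0.529 to 2.71), in control nascent mesoderm, and all neighbouring populations overlapped in their intervals. Visceral endoderm, where *Rdh10* was highest, had 0 *Aldh1a2* UMIs in the control, which allows up to 0.562 CPM, and 3 UMIs in the *Yap1* cKO. The related dehydrogenases of the list fixed for synthesis had few UMIs too, 45 and 69 UMIs of *Aldh1a3* and 1 UMI of *Aldh1a1* in each library.

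*Dhrs3* (ENSMUSG00000066026, chr4:144892827-144928209, plus strand) had 116 UMIs in control embryos and 175 in the *Yap1* cKO. Its levels were 12.9 and 9.18 CPM in anterior visceral endoderm and 10.1 and 7.40 CPM in the node and axial mesendoderm, whose intervals overlapped. Visceral endoderm followed at 2.998 and 3.26 CPM, and extraembryonic ectoderm held 1 UMI in each library. The node was 5.24 times (2.57 to 11.8) as high in *Dhrs3* as the primitive streak in control embryos and 2.87 times (1.73 to 4.81) in the *Yap1* cKO. Anterior visceral endoderm and the node thus held the highest *Dhrs3* levels in both libraries. The node value depends on how the node was marked. *Trh*, also high in epiblast, was kept in the marker list in an alternative chosen after seeing the data. That alternative also raised the node gate from 50 to 700 CPM. The node value was then 14.1 CPM in control embryos and 3.67 CPM in the *Yap1* cKO.

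*Cyp26a1* (ENSMUSG00000024987, chr19:37697798-37701536, plus strand), which breaks retinoic acid down, had 5842 UMIs in 418 control cells and 6816 UMIs in 499 *Yap1* cKO cells. It was highest in anterior visceral endoderm, at 602 CPM (560 to 647) in control embryos and 449 CPM (418 to 482) in the *Yap1* cKO. Nascent mesoderm stood at 191 and 206 CPM, extraembryonic ectoderm at 149 and 131 CPM, visceral endoderm at 117 and 110 CPM, and the node at 134 and 87.5 CPM. Blood and endothelial progenitors followed at 57.4 and 43.2 CPM, *Foxf1* and *Hand1* mesoderm at 29.3 and 58.6 CPM, and the primitive streak at 10.2 and 3.78 CPM. The epiblast, which gives rise to the streak and the mesoderm, held 3 UMIs in each library, 0.159 and 0.164 CPM. That is below the 0.396 and 0.236 CPM estimated there for free RNA from the UMIs of visceral endoderm genes in epiblast cells, so no *Cyp26a1* above background was detected in the epiblast. In the control the intervals of extraembryonic ectoderm, node and visceral endoderm overlapped pairwise along the order, and in the *Yap1* cKO only those of blood progenitors and *Foxf1* and *Hand1* mesoderm did.

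In single cells *Cyp26a1* ran over a wide range within most populations. The median cell of anterior visceral endoderm held 503 CPM in control embryos and 299 CPM in the *Yap1* cKO, with a highest cell of 2089 and 1534 CPM. The median cell of nascent mesoderm held 173 and 184 CPM and that of the node 66.2 and 42.3 CPM. In the primitive streak the median cell held 0 in both libraries, and 1 cell carried 41.5% of the control UMIs and 47.7% of the *Yap1* cKO UMIs, so the streak level rests on few cells. After thinning every cell to 35000 UMIs, *Cyp26a1* was seen in 86.8% (76.4 to 93.8) of control nascent mesoderm cells, and in 89.8% (81.5 to 95.2) of those of the *Yap1* cKO, against 0.429% and 1.10% of epiblast cells, where it is background. Without thinning those shares were 91.2%, 98.9%, 1.29% and 1.65%. The streak stood between them at 19.05% (10.2 to 30.9) and 6.84% (2.998 to 13.03).

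**Figure D2:**
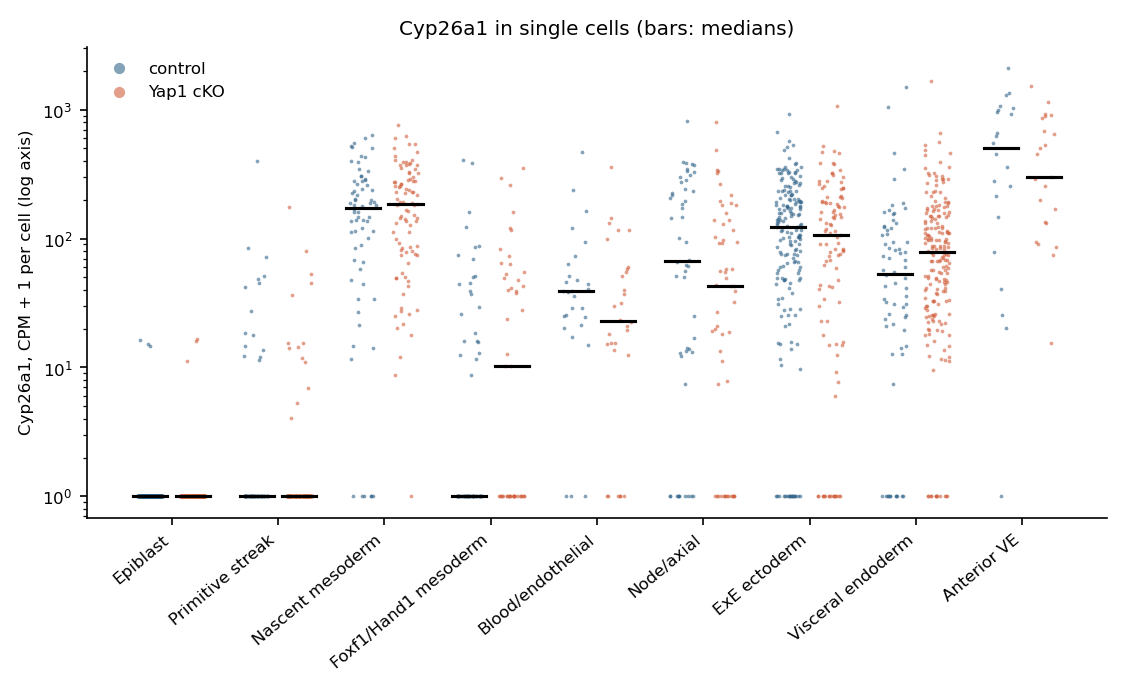
Cyp26a1 in single cells (y axis, CPM + 1 on a log axis) by population (x axis) and library, 1 point per cell, with black bars at the median. Nearly all epiblast and most primitive streak cells lie at 0, while nascent mesoderm, extraembryonic ectoderm and both classes of visceral endoderm hold a UMI in most cells.

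Among the cells of the visceral endoderm gates the retinoic acid genes differed along the anterior markers. Visceral endoderm cells of both classes were binned by their summed CPM of *Cer1*, *Hhex*, *Lefty1*, *Lhx1* and *Dkk1*. The bins from 300 CPM up are the anterior visceral endoderm gate itself, so the bins partly restate the contrast of these classes. In control cells under 50 CPM of these markers *Cyp26a1* stood at 56.6 CPM, in cells of 50 to 100 at 79.8 CPM, of 100 to 300 at 421 CPM, of 300 to 1000 at 530 CPM, and of 1000 or more at 623 CPM. The same bins of the *Yap1* cKO held 94.3, 116, 213, 592 and 414 CPM. *Cyp26a1* was thus higher in each control bin of more markers, and in each bin of the *Yap1* cKO up to the last. Of the control bins, neighbours overlapped in their intervals except the second and the third. Among control cells under 300 CPM of the markers, a single cell held 142 of the 624 *Cyp26a1* UMIs. It lies in the first or the third bin, since the second held 56 UMIs in all. The bins were not read without that cell. The bins held 47, 11, 10, 4 and 18 control cells and 139, 35, 20, 5 and 18 *Yap1* cKO cells, so those of under 20 cells are thinly filled.

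*Rarb* and *Dhrs3* were also higher in the bin of most markers than in that of fewest, and *Rdh10* and *Crabp2* lower, with no steady course through the thinly filled bins between. *Rarb* was at 0 in control cells of the lowest bin and at 30.1 CPM (20.1 to 43.2) in the highest, and at 0 and 28.6 CPM (20.4 to 38.9) in the *Yap1* cKO. *Dhrs3* stood at 3.42 and 15.5 CPM at these ends in control embryos and at 2.90 and 10.0 CPM in the *Yap1* cKO. *Rdh10* stood at 55.8 and 12.4 CPM in control embryos and at 45.6 and 14.3 CPM in the *Yap1* cKO. *Crabp2* stood at 24.8 CPM and at 0, which allows up to 3.11 CPM, in the control, and at 38.4 and 2.86 CPM in the *Yap1* cKO. *Yap1* stood at 29.2 and 38.4 CPM at these ends in control embryos and at 25.9 and 13.6 CPM in the *Yap1* cKO. *Cyp26a1*, *Rarb* and *Dhrs3* were thus higher in the bin of most anterior markers, and *Rdh10* and *Crabp2* in that of fewest, in both libraries. The bin of most markers lies in the anterior visceral endoderm gate, and the part of cells derived from the epiblast in it was not tested.

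**Figure D3:**
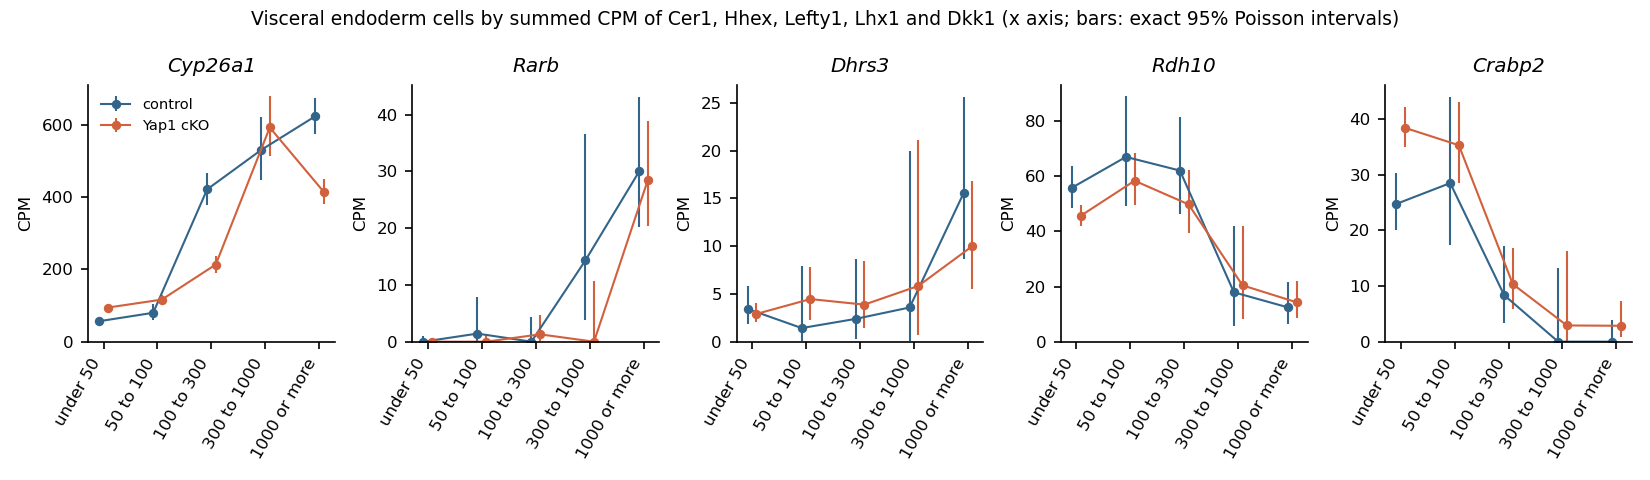
Levels of Cyp26a1, Rarb, Dhrs3, Rdh10 and Crabp2 (y axes, CPM) in visceral endoderm cells binned by summed CPM of Cer1, Hhex, Lefty1, Lhx1 and Dkk1 (x axis), for each library, with exact 95% Poisson intervals. Cyp26a1, Rarb and Dhrs3 are higher in the right-most bin than in the left-most and Rdh10 and Crabp2 lower, in both libraries.

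Cells were also clustered with the 9 genes left out of the features, which left 2 larger clusters of visceral endoderm, one led by *Ptgds*, *Bmp2* and *Wnt3* (24 control and 61 *Yap1* cKO cells) and one led by *Fabp3*, *Pkp1* and *Fabp1* (42 and 122). *Crabp2* belonged to the second, at 34.1 and 46.7 CPM against 2.82 and 9.21 CPM in the first. *Cyp26a1* was at 98.8 and 143 CPM in the first and at 51.5 and 81.8 CPM in the second. *Rdh10* was at 72.2 and 65.4 CPM in the first and at 54.2 and 44.2 CPM in the second. Smaller clusters, of at most 12 cells a library, are not described. In anterior visceral endoderm, thinned to equal depth, *Cyp26a1* and *Rarb* were both seen in 42.9% of control cells and 39.1% of *Yap1* cKO cells, where the product of their single shares was 47.4% and 37.4%. *Cyp26a1* and *Rdh10* were seen together in 59.4% and 67.4% of visceral endoderm cells, beside products of 58.4% and 66.2%, so these cells showed them together about as often as the single shares give.

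Extraembryonic ectoderm fell into 2 clusters that differed in *Cyp26a1*. A cluster led by *Plut*, *Scmh1* and *T* held 210 CPM in 112 control cells and 217 CPM in 55 *Yap1* cKO cells. The other, led by *Id3* and *Ascl2*, held 58.1 CPM in its 68 control cells and 61.7 CPM in its 46 *Yap1* cKO cells. The clusters thus differed from each other far more than the libraries differed within them. The ratio of *Yap1* cKO to control was 1.03 (0.963 to 1.11) in the first and 1.06 (0.925 to 1.22) in the second, beside 0.881 (0.828 to 0.937) over all extraembryonic ectoderm.

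On the way from the streak into mesoderm, *Cyp26a1* was higher with more *Mesp1* and *Mesp2*, genes of the earliest mesoderm. Streak and nascent mesoderm cells were binned by the summed CPM of the pair. In the control *Cyp26a1* stood at 4.97 CPM under 20 CPM of the pair, 55.0 CPM from 20 to 300, 138 CPM from 300 to 1000 and 238 CPM from 1000 up. In the *Yap1* cKO the same bins held 3.91, 46.8, 132 and 260 CPM. Both libraries thus gave the same order, and the intervals of the genotypes overlapped in every bin. The bins held 53, 17, 24 and 38 control and 98, 27, 32 and 53 *Yap1* cKO cells. *Crabp1* ran from 9.27 to 47.0 CPM in the third of these bins and 40.9 CPM in the last in the control, and from 10.5 to 60.5 and 42.1 CPM in the *Yap1* cKO. *Crabp2* ran the other way, from 12.0 to 1.97 CPM and from 15.9 to 2.75 CPM, as did *Rarg*, from 21.7 to 7.53 CPM and from 19.1 to 7.32 CPM.

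**Figure D4:**
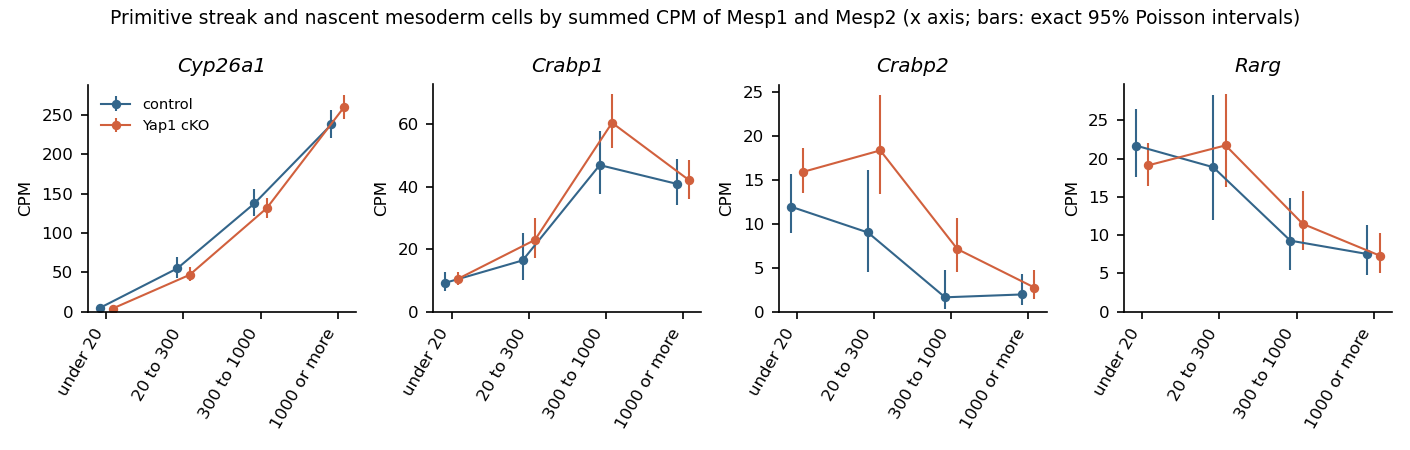
Levels of Cyp26a1, Crabp1, Crabp2 and Rarg (y axes, CPM) in primitive streak and nascent mesoderm cells binned by summed CPM of Mesp1 and Mesp2 (x axis), for each library, with exact 95% Poisson intervals. Cyp26a1 is higher in each bin to the right, from 4.97 to 238 CPM in control embryos and from 3.91 to 260 CPM in the Yap1 cKO, and Rarg is lower in the right-most bins than in the left-most.

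The binding proteins were highest in different populations, and both were counted in epiblast and streak. *Crabp1* (ENSMUSG00000032291, chr9:54764748-54773110, plus strand) was highest in *Foxf1* and *Hand1* mesoderm, at 65.7 CPM (58.5 to 73.5) in control embryos and 88.6 CPM (79.0 to 99.0) in the *Yap1* cKO. Nascent mesoderm stood at 42.9 and 51.1 CPM, blood and endothelial progenitors at 19.3 and 41.5 CPM, epiblast at 9.38 and 9.41 CPM and the streak at 8.45 and 10.6 CPM. *Crabp1* was therefore a mesodermal gene in both libraries, 7.01 times (5.80 to 8.48) and 9.41 times (7.79 to 11.4) as high in *Foxf1* and *Hand1* mesoderm as in epiblast. Anterior visceral endoderm held 0 control and 3 *Yap1* cKO UMIs.

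*Crabp2* (ENSMUSG00000004885, chr3:87948666-87953376, plus strand) was a gene of epiblast and visceral endoderm. Epiblast stood at 31.8 CPM (29.3 to 34.4) in control embryos and 31.6 CPM (29.1 to 34.3) in the *Yap1* cKO, and visceral endoderm at 22.7 CPM (18.8 to 27.1) and 35.2 CPM (32.3 to 38.2). Visceral endoderm was thus below epiblast in control embryos and overlapped it in the *Yap1* cKO. The streak held 12.3 and 16.9 CPM, and nascent mesoderm 9 UMIs (1.69 CPM) and 37 UMIs (4.58 CPM). Extraembryonic ectoderm held 2 UMIs in control embryos and 27 in the *Yap1* cKO, 59.3% of the latter in 1 cell.

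Of the receptors, *Rara* (ENSMUSG00000037992, chr11:98927818-98974942, plus strand) was the most even. Its levels lay between 12.8 and 32.1 CPM in all 18 pairs of population and library, and nascent mesoderm was lowest in both, at 12.8 and 15.8 CPM. Epiblast, at 26.7 and 27.0 CPM, was 2.09 times (1.62 to 2.73) and 1.70 times (1.40 to 2.08) as high as nascent mesoderm. Among the other populations each neighbour in the order overlapped the next in both libraries.

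*Rarb* (ENSMUSG00000017491, chr14:16430839-16819156, minus strand) was the most restricted receptor, with 138 UMIs in 71 control cells and 105 UMIs in 55 *Yap1* cKO cells. Anterior visceral endoderm stood at 26.5 CPM (18.3 to 37.3) and 23.0 CPM (16.4 to 31.3), while the rest of visceral endoderm held 1 and 2 UMIs. *Foxf1* and *Hand1* mesoderm followed at 8.89 and 5.14 CPM, blood progenitors at 4.24 and 5.36 CPM and nascent mesoderm at 3.76 and 1.98 CPM. These mesodermal populations overlapped their neighbours in the order. Epiblast held 9 UMIs in control embryos and 1 in the *Yap1* cKO.

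*Rarg* (ENSMUSG00000001288, chr15:102234938-102257517, minus strand) was highest in epiblast, at 26.3 CPM (24.0 to 28.7) in control embryos and 22.2 CPM (20.1 to 24.5) in the *Yap1* cKO. The streak, at 22.1 and 20.03 CPM, overlapped it. With *Trh* in the node list, the control node was above the epiblast and the ratio of *Rarg* in the node was 0.481 in place of 0.915. *Foxf1* and *Hand1* mesoderm stood at 18.6 and 12.9 CPM, the node at 14.4 and 13.2 CPM and nascent mesoderm at 8.27 and 9.16 CPM. Epiblast was 3.18 times (2.33 to 4.43) and 2.42 times (1.89 to 3.15) as high as nascent mesoderm. Visceral endoderm held 0 UMIs in the control, which allows up to 0.562 CPM, and 4 in the *Yap1* cKO. *Rarb* in anterior visceral endoderm and *Rarg* in epiblast thus left visceral endoderm outside its anterior cells with *Rara* alone at more than a few UMIs.

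For the genotypes, a ratio of *Yap1* cKO to control was read where a gene had at least 50 UMIs over both libraries in a population, and was called past the fold at 1.5 times or more in either direction. Of 81 pairs of gene and population 42 had that many UMIs, and 39 did not and were not read. Of the 42, 8 were past the fold, 5 higher and 3 lower in the *Yap1* cKO, and 7 of these had an interval without 1. Over all pairs read, 27 of the 42 had an interval that held 1. Most ratios of the retinoic acid genes were thus within the fold. The 8 are 19.05% of the pairs read, where 7.20% of all pairs of a gene and a population with as many UMIs were past it. The 42 pairs share cells and genes, and the difference was not tested.

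Population by population the count was set beside the share of all genes of at least 50 UMIs past the same fold. In epiblast 0 of 5 retinoic acid genes were past it, where 4.85% of all genes were, and in nascent mesoderm 0 of 5, where 6.03% were. In the streak it was 1 of 6 (6.63% of all genes), in *Foxf1* and *Hand1* mesoderm 2 of 6 (8.24%), in blood and endothelial progenitors 1 of 3 (9.64%) and in the node 1 of 4 (10.8%). In extraembryonic ectoderm it was 1 of 4 (5.46%), in visceral endoderm 2 of 6 (6.27%) and in anterior visceral endoderm 0 of 3 (9.0%).

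**Figure D5:**
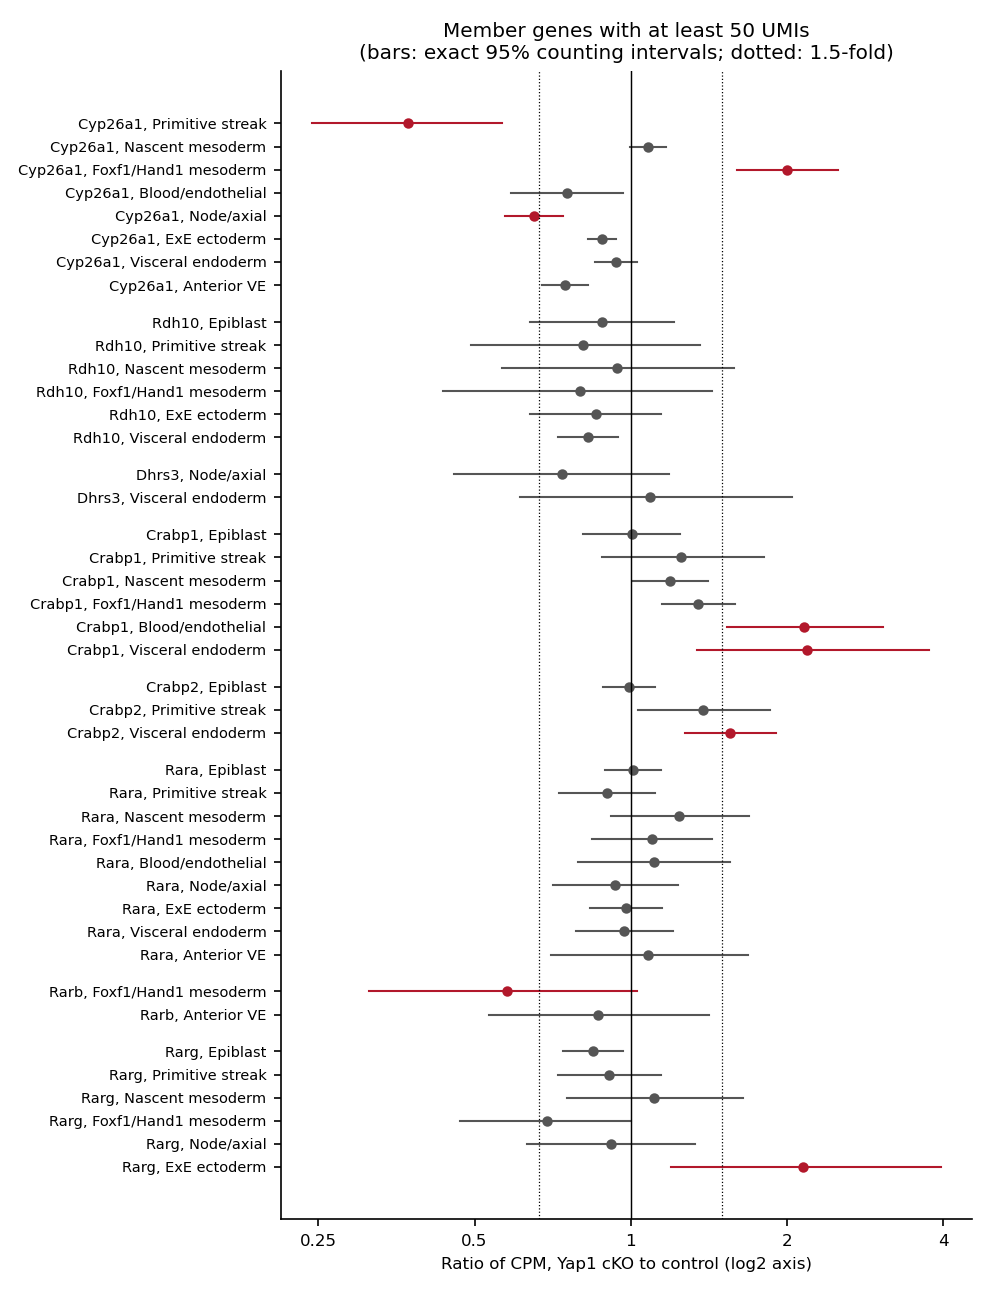
Ratio of Yap1 cKO to control (x axis, log2 scale) for the 42 pairs of gene and population with at least 50 UMIs (y axis), with exact 95% counting intervals; red marks the 8 pairs past 1.5-fold and dotted lines the fold. The other 34 pairs lie between the dotted lines.

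In the epiblast, where *Yap1* stood at 29.2 and 1.04 CPM, the retinoic acid genes were close to their control levels over all cells. *Crabp2* had a ratio of 0.993 (0.885 to 1.12), *Crabp1* 1.004 (0.809 to 1.25), *Rara* 1.01 (0.891 to 1.15) and *Rdh10* 0.880 (0.638 to 1.21). *Rarg* was slightly lower, with a ratio of 0.846 (0.740 to 0.966). *Crabp1* in epiblast was higher in Y-bearing cells (1.57, 1.09 to 2.24) and lower in Xist-bearing cells (0.736, 0.556 to 0.978), and *Crabp2* was lower in 1 epiblast cluster of 27 control and 76 *Yap1* cKO cells (0.560, 0.441 to 0.716). That cluster had 65.0% of its cells in the epiblast gate. The other epiblast clusters read gave *Crabp2* ratios of 1.28, 1.12, 1.34 and 1.01, with intervals that held 1. In nascent mesoderm the ratios were 1.08 (0.998 to 1.17) for *Cyp26a1*, 1.19 (1.01 to 1.41) for *Crabp1* and 1.11 (0.752 to 1.65) for *Rarg*. *Rara* stood there at 1.24 (0.917 to 1.69) and *Rdh10* at 0.941 (0.566 to 1.58). At this depth a change of 1.5 times lay outside most of these intervals over all cells. The exceptions were *Rdh10* in both populations and *Rara* and *Rarg* in nascent mesoderm.

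*Cyp26a1* was past the fold in 3 embryonic populations, in both directions, and each value moved with how the cells were taken. In *Foxf1* and *Hand1* mesoderm it was higher in the *Yap1* cKO (2.001, 1.60 to 2.51). There 1 cell held 27.4% of the control and 35.6% of the *Yap1* cKO UMIs. Binned by *Mesp1* and *Mesp2*, these cells held 10.5 (6.10 to 16.8) and 34.0 CPM (22.0 to 50.2) of *Cyp26a1* from 20 to 300 CPM. From 300 to 1000 CPM they held 27.4 (18.7 to 38.7) and 82.8 CPM (68.9 to 98.7). In the lowest and highest bins the intervals of the genotypes overlapped. The top *Yap1* cKO cell, with 73 UMIs, must lie in the bin from 300 to 1000 CPM, which held 124 UMIs. The top control cell, with 37 UMIs, must lie in the highest bin, which held 80. No other bin of the same library held as many UMIs as its top cell. The bins were not read without these cells. Doubling the thresholds of the marker gates gave 2.88, and taking the population from clusters gave 1.07. Of the clusters behind the latter, that with 93.6% of its cells in this gate gave 1.91 (1.25 to 2.93). That with 45.2% of its cells in the gate gave 0.746 (0.635 to 0.877). Y-bearing cells alone gave 1.16 (0.707 to 1.85) and Xist-bearing cells 1.84 (1.35 to 2.52). In the streak *Cyp26a1* was lower (0.372, 0.244 to 0.565), and the ratio was 1.38 with populations from clusters. In the clusters taken for streak, 69.9%, 47.6% and 47.6% of the cells were in the streak gate. Y-bearing cells alone gave 0.0545 (0.0106 to 0.176) in the streak, on 28 control and 3 *Yap1* cKO UMIs. Xist-bearing cells gave 0.679 (0.403 to 1.17), on 25 and 41 UMIs. A single control streak cell held 22 of the 53 control UMIs, and neither ratio was read without it. The cause, and the difference of these ratios from each other, were not tested.

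In the node *Cyp26a1* was lower in the *Yap1* cKO (0.651, 0.572 to 0.741), and the makeup of the gate differed with it. Cells of at least 100 CPM of *Cer1* and *Hhex* were 29 of 50 control cells (58.0%) and 18 of 55 *Yap1* cKO cells (32.7%). In those cells *Cyp26a1* stood at 173 CPM (157 to 190) and 163 CPM (142 to 187), and in the rest at 72.1 CPM (59.1 to 87.1) and 60.5 CPM (52.8 to 69.0). Within each kind of node cell the intervals of the genotypes therefore overlapped. Node genes stood at 127 and 120 CPM in the cells with *Cer1* and *Hhex*. They stood at 164 and 75.1 CPM in the rest, which were thus not alike between the libraries. The part of this makeup in the ratio was not tested. With *Trh* in the node list the ratio was 1.35. Taking the population from clusters gave 0.901 (0.768 to 1.05), within the fold, in a cluster with 93.7% of its cells in the node gate. *Rarg* ran the other way within the node, at 7.52 and 7.63 CPM in the cells with *Cer1* and *Hhex* and at 25.6 and 15.2 CPM in the rest.

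In the extraembryonic populations *Cyp26a1* had ratios of 0.746 (0.674 to 0.826) in anterior visceral endoderm, 0.881 in extraembryonic ectoderm and 0.937 (0.855 to 1.03) in visceral endoderm. For the first, the cluster of anterior visceral endoderm gave 0.590 (0.521 to 0.668), past the fold, Y-bearing cells 0.751 (0.602 to 0.937) and Xist-bearing cells 1.07 (0.949 to 1.21). Within visceral endoderm, the larger clusters ran higher in the *Yap1* cKO, 1.45 (1.23 to 1.72) in that led by *Ptgds* and 1.59 (1.35 to 1.88) in that led by *Fabp3*. In the control 1 visceral endoderm cell held 22.8% of the *Cyp26a1* UMIs, and without the top cell of each library the ratio was 1.14. *Rdh10* in visceral endoderm had a ratio of 0.827 (0.724 to 0.946).

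The binding proteins were past the fold in 3 pairs, each higher in the *Yap1* cKO over all cells. In Y-bearing cells both of those in visceral endoderm had ratios below 1, on few UMIs. *Crabp1* had 7 control and 1 *Yap1* cKO UMIs there (0.307, 0.0068 to 2.39), an interval that held 1. *Crabp2* had 33 and 2 (0.130, 0.0151 to 0.508). *Crabp1* in blood and endothelial progenitors stood at a ratio of 2.15 (1.53 to 3.06), and 1 cell held 22.0% of its control and 19.8% of its *Yap1* cKO UMIs. The adult haemoglobin genes were higher in the *Yap1* cKO library too, and their part in this ratio was not tested. *Crabp1* in visceral endoderm, with 19 and 124 UMIs, stood at 2.18 (1.34 to 3.75) and *Crabp2* there 1.55 (1.27 to 1.90). *Crabp1* in *Foxf1* and *Hand1* mesoderm (1.35, 1.15 to 1.58) and *Crabp2* in the streak (1.38, 1.04 to 1.86) were higher within the fold. Of the 9 ratios of the pair that were read, 8 were above 1, while *Crabp2* in epiblast was at 0.993. Among the 8, *Crabp1* in epiblast (1.004, 0.809 to 1.25) and in the streak (1.25, 0.881 to 1.81) had intervals that held 1. No share of all genes above 1 is given, so the count is not read as particular to these genes.

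The receptors gave 2 ratios past the fold, both at low counts. *Rarb* in *Foxf1* and *Hand1* mesoderm stood on 41 control and 18 *Yap1* cKO UMIs (0.579, 0.313 to 1.03), and its interval held 1. Summed over all embryonic populations *Rarb* had 95 control and 60 *Yap1* cKO UMIs, 2.35 and 1.22 CPM (0.519, 0.369 to 0.725). Blood progenitors alone among them were higher in the *Yap1* cKO, on 11 and 15 UMIs (1.27, 0.543 to 3.05). The sum weighs populations by unlike cell numbers, *Foxf1* and *Hand1* mesoderm 63 and 46 and the streak 64 and 119. The part of this mix in the ratio was not tested. *Rarg* in extraembryonic ectoderm stood on 20 and 33 UMIs (2.15, 1.20 to 3.96). All 9 ratios of *Rara* lay between 0.899 and 1.24 with intervals that held 1.

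The pools differed in their share of Y-bearing cells, so the ratios were also read within Y-bearing and within Xist-bearing cells, which are not replicates. Within a library the 2 kinds of cells themselves differed past the fold, with an interval without 1, in 14 of 60 combinations. A combination is a gene, population and library with at least 50 UMIs. Of the 14, 7 were in *Cyp26a1*, and 0 of 16 in *Rara* were past it. No share of all genes is given for this split, so the count is not read as particular to these genes. Y-bearing visceral endoderm stood at 23.0 CPM of *Cyp26a1* in the control (20 cells) and at 219 CPM in the *Yap1* cKO (10 cells), and Xist-bearing visceral endoderm at 165 and 107 CPM. The genotype ratio of *Cyp26a1* in visceral endoderm was thus 9.54 in the first and 0.653 in the second. Of the 624 control UMIs there, Xist-bearing cells held 584 and Y-bearing cells 36. The control cell with 142 UMIs must therefore be Xist-bearing, and the 0.653 was not read without it. For *Crabp2* in visceral endoderm the ratios were 0.130 and 1.64, for *Crabp1* there 0.307 and 2.66, and for *Crabp1* in blood progenitors 5.53 and 1.34. The 0.307 rests on 7 control and 1 *Yap1* cKO UMIs, and its interval held 1. In the node *Cyp26a1* was lower in both, at 0.602 on 3 Y-bearing *Yap1* cKO cells and at 0.466. Genotype and embryo cannot be told apart with 1 pool each.

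The wider pathway was read from lists that leave the 9 genes out. Over all of them, 17 of 190 pairs of gene and population with at least 50 UMIs were past the fold (8.95%), 9 higher and 8 lower, where 7.20% of all pairs were. Of synthesis and storage genes 10 of 18 were read, most UMIs being of *Adh5*, *Dhrs4*, *Rdh11* and *Rdh14*, and 2 of 56 pairs were higher past the fold and 1 lower. *Rdh11*, a retinal reductase, was lower in *Yap1* cKO epiblast (12.6 and 7.88 CPM, ratio 0.625) and higher in visceral endoderm (23.6 and 38.4 CPM, 1.63). Of transport and binding genes 1 of 26 pairs was higher and 2 lower. *Rbp4*, the carrier of retinol in blood, stood at 3315 and 3732 CPM in visceral endoderm and was past the fold in extraembryonic ectoderm (5.29 and 11.7 CPM, 2.21). The part of free RNA in the latter was not tested. *Stra6*, the receptor for *Rbp4*, was lower in the *Yap1* cKO node on 30 and 21 UMIs (0.543, 0.296 to 0.981), and *Fabp5* was past the fold in no population.

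The other enzymes of breakdown were scarce, with 11 and 14 UMIs of *Cyp26b1* and 20 and 16 of *Cyp26c1*, too few for a ratio in any population. *Cyp2s1* had 53 and 25 UMIs in *Foxf1* and *Hand1* mesoderm (0.622, 0.370 to 1.02). Of partner receptors and cofactors 2 of 78 pairs were higher past the fold and 1 lower, the latter *Nrip1* in anterior visceral endoderm (74.0 and 47.1 CPM, 0.636), and *Ncor1*, *Ncoa2* and *Ncoa3* were past it nowhere. Of genes known to respond to retinoic acid 4 of 28 pairs were higher and 3 lower, 25% in all beside the 7.20% of all pairs. *Cdx1* was lower in nascent mesoderm (10.5 and 6.69 CPM, 0.635) and in *Foxf1* and *Hand1* mesoderm (12.1 and 6.86 CPM, 0.565). *Nr2f2* was higher in visceral endoderm (14.2 and 23.3 CPM, 1.63), *Zfp703* in blood progenitors (8.47 and 15.01 CPM, 1.77) and *Meis2* in the node (10.6 and 16.6 CPM, 1.57). *Meis2* also had 1 control and 49 *Yap1* cKO UMIs in extraembryonic ectoderm, and stood at 181 and 188 CPM in nascent mesoderm. *Meis1* was past the fold nowhere, so the responsive genes past the fold lay on both sides.

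Each gene was last compared with 12753 others by the Pearson correlation of log2(CPM + 1) over the 18 pairs of population and library, which share libraries and pools, and the r is a description. Nearest to *Cyp26a1* were *N4bp2* and *Brap* (both r = 0.90) and *Commd3* (0.89). Nearest to *Rdh10* were *Timd2* (0.98) and *Sec24a* (0.97), and nearest to *Dhrs3* were *Dpyd* and *Ttc6* (both 0.95) and *9030622O22Rik* (0.94). *Crabp1* was followed by *Mef2c* and *Sh3rf3* (both 0.93) and *Cdh8* (0.92), and *Crabp2* by *Gpr137b* (0.90), *Ndufv3* (0.89) and *Trim2* (0.88). *Rarb* was followed by *Tmeff1* (0.95), *Pard3* (0.93) and *Dstn* (0.92), and *Rarg* by *Lypd6* and *Ldb2* (both 0.97) and *Pnma2* (0.96). *Rara*, the most even gene, had the loosest match, with *Sh3rf1* (0.80), *Mmgt2* (0.78) and *Lrrc75a* (0.75). None of the 24 nearest genes is a marker used to part the cells, and *Aldh1a2* had too few UMIs to be compared.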

How the data were processed

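The authors counted reads with Cell Ranger 7.1.0 on mm10, per the submitters' processing notes, and deposited UMI counts per gene and barcode, without normalization. Scripts used python 3.11.15, numpy 2.4.6, scipy 1.17.1 and scanpy 1.11.5. Kept were barcodes with at least 5000 genes and at most 10% mitochondrial UMIs, which removed 0. Scrublet called 4 control and 19 *Yap1* cKO cells, left out only as an alternative. SoupX was not repeated.

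Gates on summed marker CPM were 200 for extraembryonic ectoderm, 500 for visceral endoderm, 50 for the node and 300 for the others. *Trh* was left out of the node gate as also high in epiblast, where the whole node list stood at 173 and 206 CPM. The alternative with *Trh* in the node list set that gate at 700 CPM. Embryonic cells past several gates went to the last in the order epiblast, streak, nascent mesoderm, *Foxf1* and *Hand1* mesoderm, node, blood. Left out as mixed (8 control, 15 *Yap1* cKO) were cells above both extraembryonic gates and visceral endoderm cells with 200 CPM of the epiblast list. So were embryonic cells with 100 CPM of visceral endoderm genes, and cells in no gate (4 and 2) were also left out. Thresholds were set after the cells were seen. Clusters used 3000 features, 19 components and a resolution of 1.5. Y-bearing cells had at least 2 Y-linked and no *Xist* UMIs, Xist-bearing cells the reverse. Thinning to 35000 UMIs left out 19 and 33 cells. Free RNA was estimated from other lineages' genes.

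The members and lists were chosen with earlier results of these data known. Besides members and *Yap1*, genes named are list genes past 1.5-fold with an interval without 1, each list's 4 genes of most UMIs, and 3 nearest genes per member of at least 200 UMIs. Others, cluster-leading genes among them, were chosen after their values were seen. Intervals are exact (Poisson, conditional binomial, Clopper-Pearson). A limit at 0 is 3 counts. The intervals of ratios were checked on simulated Poisson counts, which hold no difference between cells. Coordinates are on GRCm38. A few genes that this rule names are not reported here.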

Additional observations from a re-analysis of the deposited data

Results flagged for a closer look

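*Cyp26a1* had genotype ratios on opposite sides of 1 in populations of the same libraries: 0.372 in the primitive streak, 2.001 in *Foxf1* and *Hand1* mesoderm and 0.651 in the node and axial mesendoderm. With populations from clusters the first was 1.38, the second 1.07 and the last 0.901 (0.768 to 1.05). With *Trh* in the node list the last was 1.35. The clusters taken for streak had 47.6 to 69.9% of their cells in its gate. Those taken for *Foxf1* and *Hand1* mesoderm had 45.2% and 93.6%, and that taken for the node 93.7%. The side of 1 on which the first and the last lie thus depends on how the populations were drawn. It was picked out because its level moved one way between the genotypes in some populations and the other way in another, and the difference between the populations was not tested, since each genotype is 1 library.

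Barcodes with at least 2000 but under 5000 genes, 301 for the control pool and 417 in the *Yap1* cKO, enter no comparison above, and they hold retinoic acid genes too. In them *Rdh10* stood at 9.98 and 17.8 CPM (ratio 1.78, 1.21 to 2.67) and *Crabp2* at 12.5 and 24.1 CPM (ratio 1.92, 1.37 to 2.74). Which populations these barcodes came from was not tested.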

How the results depend on the processing

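No paired analysis was possible because each genotype has 1 library, and for the same reason no library could be left out. Over 15 alternatives, 1 of them (*Trh* in the node list) chosen after seeing the data, 581 of 630 genotype ratios kept within their counting interval. In 53 the ratio crossed 1, 30 of them within that interval, and 5 of the 53 had been past the fold: *Cyp26a1* in the streak with populations from clusters (1.38), *Cyp26a1* in the node with *Trh* in the list (1.35), and in Y-bearing cells alone *Crabp1* (0.307) and *Crabp2* (0.130) in visceral endoderm and *Rarb* in *Foxf1* and *Hand1* mesoderm (1.06). Those in Y-bearing cells rest in turn on 7 and 1, 33 and 2, and 26 and 8 UMIs of the control and the *Yap1* cKO. The cause was not tested. The 8 pairs past the fold were 13 in Y-bearing cells alone and 6 to 12 under the other alternatives, with 4 to 8 of the 8 kept. All 42 pairs were read under each alternative, without the minimum of 50 UMIs being applied anew. Some of these ratios thus rest on few UMIs. No share of all genes is given for these alternatives, so the counts are not read as particular to the retinoic acid genes. Without thinning, *Cyp26a1* and *Rdh10* were seen together in 82.8% and 88.2% of visceral endoderm cells, and *Cyp26a1* in 98.9% of *Yap1* cKO nascent mesoderm. The share past the fold was 14.3% of list pairs and 9.49% of epiblast genes at a minimum of 20 UMIs. It was 4.59% and 1.58% at 200, and 1.58% and 0.997% at a fold of 2. The list pairs are of all populations and the genes of epiblast alone, so these shares are not to be set against each other. By Spearman correlation 6 of the 24 nearest genes were also named. *Yap1* in epiblast had a ratio of 0.0708 in Y-bearing cells. The highest population of a gene changed for *Rara* and *Aldh1a2* in the *Yap1* cKO with other gate thresholds, and for *Dhrs3* and *Rarg* in the control with *Trh* in the list. Genes of under 50 UMIs in a population were too shallow for a ratio.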
